A study of Mus musculus with 6 samples.

Results

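The hepatic level of 10 genes of the NRF2 pathway and of antioxidant defence was compared between mice with human NPC1L1 in the liver and their WT littermates. The genes were chosen by name, as the transcription factor NRF2 (Nfe2l2), its inhibitor Keap1, the NRF2 target genes Nqo1, Hmox1, Gclc, Gclm, Txnrd1 and Srxn1, and the antioxidant enzymes Sod2 and Cat. All 10 were found among the 37071 genes on the array, and they were among the 22329 genes that could be tested. Male L1-Tg mice and male WT littermates were compared, with 3 arrays per genotype, and each array held liver RNA pooled from 2 or 3 animals fed a control fat diet (CFD). L1-Tg mice were hemizygous for a transgene, APOE-NPC1L1, in which the APOE promoter drives human NPC1L1 in hepatocytes. The line is 1 founder line from a mixed background that had been crossed to C57BL/6J for at least 8 generations, and both genotypes came from crosses of L1-Tg with C57BL/6J mice. The age given for the study's animals is 6 to 12 weeks, and they were kept under 12 h of light and 12 h of dark. NPC1L1 is a transporter that takes cholesterol back from bile, and the arrays addressed how the livers of the genotypes differ before any high-fat feeding.

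NRF2 is a transcription factor that is normally short-lived, since KEAP1 holds it in the cytoplasm and hands it to a ubiquitin ligase. Oxidants and electrophiles modify cysteines of KEAP1, NRF2 then reaches the nucleus, and with a small MAF protein it binds antioxidant response elements of genes for glutathione synthesis, thioredoxin reduction, quinone reduction and heme breakdown. In liver the pathway is known for the defence against drugs and oxidants. Because the control of NRF2 lies mainly in its protein stability, the level of its mRNA is not a measure of its activity, and the arrays measured mRNA alone.

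The antioxidant response element has the core TGACNNNGC, and it was searched on both strands of the RefSeq promoter windows of build GRCm38.p6, which hold 250 bases before and 50 bases after an annotated start. Of 32851 windows of this length, 12.4% held the core. Of the 10 windows given for 8 of the 10 genes, 4 windows of 4 genes held it, namely those of Nfe2l2, Gclm, Srxn1 and 1 of the windows of Txnrd1. The windows that held the core are shown, with the match in capitals and the rest in lower case, 5′ to 3′ in the direction of the gene. In these 4 genes every L1-Tg pool lay above every WT pool. The same was true of Keap1 and Nqo1, whose windows held no match, and of Gclc, which had no window. Of all genes tested, 7.28% had every L1-Tg pool above every WT pool. A link between the core and the differences was not tested. The windows lie at chr2:75704614-75704913 on the minus strand for Nfe2l2, and on the plus strand at chr3:122245307-122245606 for Gclm, chr10:82858956-82859255 for Txnrd1 and chr2:152105274-152105573 for Srxn1.
Nfe2l2: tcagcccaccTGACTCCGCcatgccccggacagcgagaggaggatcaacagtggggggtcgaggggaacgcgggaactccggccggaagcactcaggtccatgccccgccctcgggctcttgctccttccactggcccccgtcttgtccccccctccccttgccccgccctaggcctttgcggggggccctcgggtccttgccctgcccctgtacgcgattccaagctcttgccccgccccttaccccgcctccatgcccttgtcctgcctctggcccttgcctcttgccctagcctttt
Gclm: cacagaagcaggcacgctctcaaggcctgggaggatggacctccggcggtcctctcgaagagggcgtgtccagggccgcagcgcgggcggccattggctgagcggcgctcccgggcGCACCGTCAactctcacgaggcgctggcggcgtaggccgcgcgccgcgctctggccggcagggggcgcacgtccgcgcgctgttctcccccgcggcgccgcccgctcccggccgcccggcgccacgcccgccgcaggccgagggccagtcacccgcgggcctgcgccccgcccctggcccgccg
Txnrd1: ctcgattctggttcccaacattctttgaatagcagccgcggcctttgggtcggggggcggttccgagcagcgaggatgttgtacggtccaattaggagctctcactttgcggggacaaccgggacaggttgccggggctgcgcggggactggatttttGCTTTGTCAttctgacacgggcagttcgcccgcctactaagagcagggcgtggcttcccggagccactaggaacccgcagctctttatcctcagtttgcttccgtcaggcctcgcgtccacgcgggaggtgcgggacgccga
Srxn1: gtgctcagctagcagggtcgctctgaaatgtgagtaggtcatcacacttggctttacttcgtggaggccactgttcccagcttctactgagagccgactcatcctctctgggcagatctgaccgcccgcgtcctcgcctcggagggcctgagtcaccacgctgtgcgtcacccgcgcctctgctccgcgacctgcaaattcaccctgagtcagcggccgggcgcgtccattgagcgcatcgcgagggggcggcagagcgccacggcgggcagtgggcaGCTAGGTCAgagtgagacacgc
In Nfe2l2 the core reads TGACTCCGC on the strand of the gene. In Gclm, Txnrd1 and Srxn1 it is on the other strand and appears as GCACCGTCA, GCTTTGTCA and GCTAGGTCA. The matches describe these letters alone, and binding of NRF2 was not measured. Hmox1 and Gclc had no window in the table.

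Of the 10 genes, 9 were higher and 1 was lower in L1-Tg livers. On 7 of them every L1-Tg pool lay above every WT pool, with Nqo1 and Srxn1 showing the largest differences, 1.78-fold and 1.84-fold, and Gclc the smallest p. The median of the 10 log2 differences was 0.34, beside -0.03 for all genes tested, of which 43.1% were higher in L1-Tg mice. In 0 of the 10 genes did every L1-Tg pool lie below every WT pool. Among all genes tested, 7.28% had every L1-Tg value above every WT value, and 8.63% had the opposite. Of the 10 genes, 5 (Nfe2l2, Nqo1, Gclc, Txnrd1 and Srxn1) had an unadjusted p under 0.05 in limma and were higher, and 0 were lower. The same holds for 4.55% of all genes tested on the higher side and for 4.32% on the lower side. The balance of the sides over all genes moved with the scaling, from 1015 higher and 964 lower to 1417 and 664 after quantile normalization, 1578 and 311 with scaling to the array median, 1347 and 610 with the deposited matrix and 828 and 403 without scaling. Among the 10 genes 0 were on the lower side in each of these settings. After Benjamini-Hochberg adjustment over all genes tested, limma called 0 of the 10 genes, and 0.13% of all genes. The smallest adjusted p among the 10 was 0.282. With 3 pools per genotype an exact permutation test cannot give a p under 0.1. The p-values measure the spread between pools, not between single animals.

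The difference index of the study's methods divides the difference of the group means by the sum of the group standard deviations on the linear scale, and a gene passes where its modulus is above 0.7. Of the 10 genes 7 passed, all with the higher mean in L1-Tg livers. Among 20997 genes with a signal well above background on each of the 6 arrays, 11.2% passed on the higher side and 15.1% on the lower side. The index was 4.96 for Gclc, 1.58 for Keap1, 1.46 for Txnrd1, 1.37 for Gclm, 1.28 for Nqo1, 1.18 for Srxn1 and 1.13 for Nfe2l2. The same 7 genes are those whose groups did not overlap. Hmox1 (0.45), Sod2 (0.18) and Cat (-0.45) did not pass.

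**Figure D1:**
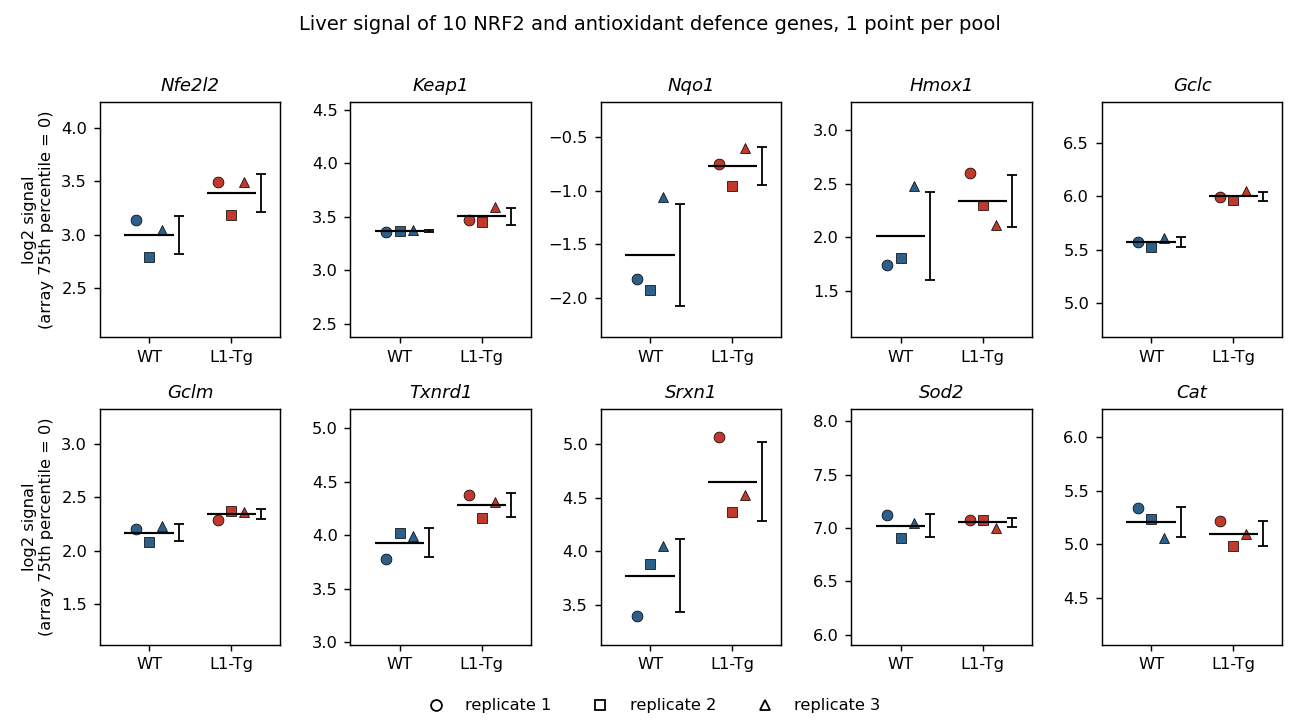
Log2 signal of each of the 10 genes in 3 WT pools (blue) and 3 L1-Tg pools (red), with the array's 75th percentile set to 0. Marker shapes give the replicate number, horizontal lines the group mean and bars the SD, and each panel spans the same log2 range. Every L1-Tg pool lies above every WT pool for Nfe2l2, Keap1, Nqo1, Gclc, Gclm, Txnrd1 and Srxn1, and the groups overlap for Hmox1, Sod2 and Cat.

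Values are log2 signals relative to the 75th percentile of the array, so 0 is the level of that percentile, and a difference of 1 is 2-fold. Levels of different genes are not compared, because probes differ in brightness. All 12 probes of the 10 genes were well above background on all 6 arrays, and 8 genes had 1 probe whereas Hmox1 and Cat had 2.

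The regulators were measured first. Nfe2l2, which encodes NRF2, had log2 signals of 3.50, 3.18 and 3.49 in L1-Tg replicates 1 to 3, against 3.14, 2.80 and 3.05 in WT replicates 1 to 3. The groups did not overlap, although L1-Tg replicate 2 was close to WT replicate 1. The mean was 3.39 ± 0.18 (SD, n = 3 pools) in L1-Tg livers and 3.0 ± 0.18 in WT livers, a log2 difference of 0.39 (standard error, SE, 0.14, limma adjusted p = 0.527). Keap1, whose product targets NRF2 for degradation, had values of 3.47, 3.45 and 3.59 in L1-Tg livers and of 3.36, 3.37 and 3.37 in WT livers. The WT pools were nearly equal and each L1-Tg pool lay above them, but the difference was small, 0.14 (SE 0.09, limma adjusted p = 0.647), or 1.1-fold. The gene for the factor and the gene for its inhibitor therefore both had their higher values in L1-Tg pools.

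The pathway's partners and competitors, which include the ubiquitin ligase subunits Cul3 and Rbx1, the small MAF genes and the repressors Bach1 and Bach2, were measured on 12 of 13 genes. Of these 5 were higher and 7 lower, with a median log2 difference of -0.00 that was 0.10 with scaling to the array median, and 0 had an unadjusted p under 0.05 in limma in either direction. Maff, a small MAF gene, had the largest difference, 0.47 (SE 0.40, limma adjusted p = 0.71), and its WT values spread from -0.80 to 0.77. With 1 array left out it ranged from 0.16 to 0.95. Sqstm1, which encodes the autophagy receptor p62 that can bind KEAP1, was higher by 0.41 (SE 0.18, limma adjusted p = 0.58), with overlapping groups. Nfe2l3, an NRF2 relative, was well above background on no array.

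The glutathione branch gave the smallest p. Gclc, the catalytic subunit of glutamate-cysteine ligase, carries out the rate-limiting step of glutathione synthesis. Its log2 signals were 6.00, 5.96 and 6.05 in L1-Tg livers and 5.58, 5.52 and 5.61 in WT livers. The pools of each genotype lay close together, and the lowest L1-Tg pool was 0.35 above the highest WT pool, the widest gap among the 10 genes. The mean was 6.00 ± 0.04 (SD, n = 3 pools) in L1-Tg livers and 5.57 ± 0.04 in WT livers. The log2 difference was 0.43 (SE 0.08, 95% interval 0.23 to 0.63), or 1.35-fold, and the limma adjusted p was 0.282. Its unadjusted p, 0.002, was the 145th smallest of the 22329. Gclm, the modifier subunit that raises the enzyme's affinity for its substrate, had values of 2.29, 2.37 and 2.36 in L1-Tg livers and of 2.20, 2.08 and 2.23 in WT livers. Its groups did not overlap, but by only 0.06, and the log2 difference was 0.17 (SE 0.09, limma adjusted p = 0.612). The subunits thus differed by 1.35-fold and 1.13-fold, and the difference between those ratios was not tested.

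Among 11 other genes of glutathione synthesis and breakdown, 6 were higher and 5 lower, with a median of 0.01. Slc3a2, the heavy chain shared by several amino acid transporters including the cystine importer, was the only gene with an unadjusted p under 0.05 in limma, with a difference of 0.74 (SE 0.26, adjusted p = 0.52) and overlapping groups. Its partner Slc7a11 was well above background on no array. Chac1, which degrades glutathione, had every L1-Tg pool below every WT pool, with a difference of -0.59 (SE 0.25, limma adjusted p = 0.56) that was -0.35 without WT replicate 1.

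In the thioredoxin branch both genes had groups that did not overlap. Txnrd1, which encodes thioredoxin reductase in the cytosol, had log2 signals of 4.38, 4.16 and 4.31 in L1-Tg livers and of 3.78, 4.02 and 4.0 in WT livers. The groups were separated by 0.14, and WT replicate 1 was the lowest pool. The log2 difference was 0.35 (SE 0.11, limma adjusted p = 0.497), or 1.27-fold. Srxn1, which encodes sulfiredoxin and repairs overoxidized peroxiredoxins, had values of 5.06, 4.36 and 4.52 in L1-Tg livers and of 3.39, 3.88 and 4.04 in WT livers. L1-Tg replicate 1 was the highest pool and WT replicate 1 the lowest. The mean was 4.65 ± 0.37 (SD, n = 3 pools) in L1-Tg livers and 3.77 ± 0.34 in WT livers. The log2 difference of 0.88 (SE 0.24, 95% interval 0.29 to 1.47, limma adjusted p = 0.455) was 0.67 without L1-Tg replicate 1 and 0.69 without WT replicate 1.

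Nqo1 and Hmox1, the quinone reductase and the heme oxygenase of the response, varied between the WT pools, with WT replicate 3 the highest. Nqo1 had log2 signals of -0.75, -0.96 and -0.60 in L1-Tg livers and of -1.82, -1.93 and -1.05 in WT livers. The groups did not overlap, but WT replicate 3 stood 0.09 below the lowest L1-Tg pool and away from the other WT pools. The mean was -0.77 ± 0.18 (SD, n = 3 pools) in L1-Tg livers and -1.60 ± 0.48 in WT livers, with a log2 difference of 0.83 (SE 0.25, limma adjusted p = 0.475). All its signals were below the array's 75th percentile, and with a normexp background correction the difference was 0.52. Hmox1, which breaks heme down to biliverdin, iron and carbon monoxide, had values of 2.60, 2.30 and 2.11 in L1-Tg livers and of 1.74, 1.80 and 2.48 in WT livers on its brighter probe. WT replicate 3 lay above L1-Tg replicates 2 and 3, and the groups overlapped. The log2 difference was 0.33 (SE 0.23, limma adjusted p = 0.669), 0.57 without WT replicate 3 and 0.20 without L1-Tg replicate 1 or WT replicate 1. The dimmer probe of Hmox1 read 0.27, 0.21 and -0.00 in L1-Tg livers and 0.14, 0.16 and 0.42 in WT livers, a log2 difference of -0.08, so the probes disagreed in sign. The mean of both probes gave 0.12.

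Of 14 other genes of heme synthesis and handling, 10 were higher and 4 lower, with a median of 0.08. Flvcr1, a heme exporter, was the only gene with an unadjusted p under 0.05 in limma. Its values were -1.52, -1.15 and -1.45 in L1-Tg livers and -1.80, -1.87 and -1.77 in WT livers, a log2 difference of 0.44 (SE 0.12, adjusted p = 0.46).

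For Sod2 and Cat the groups overlapped. Sod2, the manganese superoxide dismutase of mitochondria, had log2 signals of 7.08, 7.07 and 7.00 in L1-Tg livers and of 7.12, 6.90 and 7.05 in WT livers. The WT pools lay on both sides of the L1-Tg pools. The log2 difference was 0.03 (SE 0.10, 95% interval -0.20 to 0.26, limma adjusted p = 0.931), and its sign turned without WT replicate 2. Cat, the catalase of peroxisomes, had values of 5.21, 4.98 and 5.09 in L1-Tg livers and of 5.34, 5.23 and 5.06 in WT livers. The groups overlapped, with a difference of -0.11 (SE 0.12, 95% interval -0.39 to 0.16, limma adjusted p = 0.752), and -0.12 on the dimmer probe. Whether these genes differed from the other 8 was not tested.

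**Figure D2:**
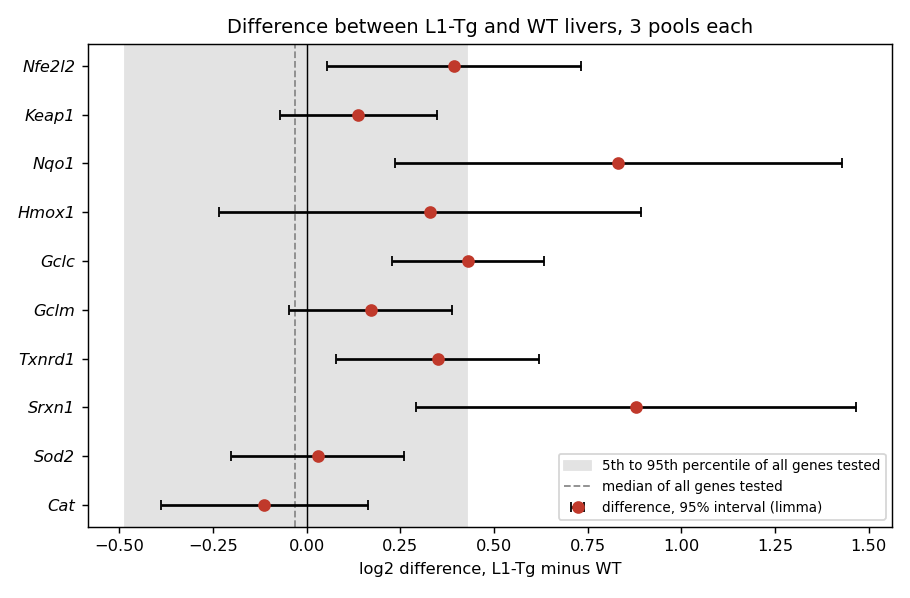
Log2 difference between L1-Tg and WT livers for each of the 10 genes (points) with its 95% interval from limma (bars), on 3 pools per genotype. The grey band runs from the 5th to the 95th percentile of all genes tested (-0.49 to 0.43) and the dashed line is their median (-0.03). Nqo1 and Srxn1 lie beyond the band, Gclc at its edge, and the intervals of Keap1, Hmox1, Gclm, Sod2 and Cat include 0.

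The 5th and 95th percentiles of the log2 differences of all genes tested were -0.49 and 0.43. The highest value of a gene was found in L1-Tg replicate 1 for 4 genes and in L1-Tg replicate 3 for 3 genes, and the lowest in WT replicate 2 for 5 genes and in WT replicate 1 for 4. Against each gene's WT mean, the median of the 10 genes was 0.44, 0.21 and 0.30 in L1-Tg replicates 1 to 3, against -0.00, -0.07 and 0.06 in WT replicates 1 to 3. On each L1-Tg array the 10 genes were thus, in the median, above their level on each WT array. The median of the 10 differences was 0.23 without WT replicate 1. The number of genes with an unadjusted p under 0.05 in limma fell from 5 to 3 without L1-Tg replicate 1, without L1-Tg replicate 3 and without scaling between arrays. Over all genes tested, the share under 0.05 on the higher side fell as well, from 4.55% to 3.25%, 2.85% and 3.71%. In these settings Gclc, Nqo1 and Srxn1 remained under 0.05, as they did in all 18 alternatives, and Nfe2l2 and Txnrd1 did so in 13 each.

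The other NRF2 target genes were measured on 31 of 33 listed, and they pointed the same way more often than not. Of these 25 were higher and 6 lower, with a median log2 difference of 0.19, 7 had an unadjusted p under 0.05 in limma and were higher, and 0 were lower. Over all genes tested, the shares under 0.05 were 4.55% on the higher side and 4.32% on the lower side. For 9 genes the groups were apart, and 8 of these were higher. Groups were apart on the higher side for 7.28% of all genes tested and on the lower side for 8.63%. After adjustment over all genes limma called 0, and the smallest adjusted p was 0.345.
Me1, a source of NADPH, had log2 signals of 4.35, 4.52 and 4.88 in L1-Tg livers and of 3.79, 3.94 and 3.97 in WT livers, a log2 difference of 0.68 (SE 0.15, limma adjusted p = 0.35). The groups did not overlap. Gsr, which regenerates reduced glutathione, had values of 4.5, 4.49 and 4.55 in L1-Tg livers and of 4.22, 4.22 and 4.17 in WT livers, a log2 difference of 0.31 (SE 0.08, limma adjusted p = 0.43). Txn1, the thioredoxin that Txnrd1 reduces, differed by 0.31 (SE 0.09), Prdx1, a peroxiredoxin, by 0.25 (SE 0.09) and Gstm3, a glutathione transferase, by 0.31 (SE 0.11). In these 3 genes the groups did not overlap, and their adjusted p in limma was 0.475, 0.519 and 0.532. Cbr3, a carbonyl reductase, had the largest difference of the list, 1.02 (SE 0.33, limma adjusted p = 0.50), with L1-Tg values from -0.51 to 0.69 and WT values from -1.23 to -0.54. Ugdh, which makes UDP-glucuronate for conjugation, differed by 0.52 (SE 0.20), with overlapping groups because WT replicate 3 was level with the lower L1-Tg pools. Gstp1, a glutathione transferase, had every L1-Tg pool below every WT pool, with a difference of -0.37 (SE 0.16, limma adjusted p = 0.56) that was -0.22 without L1-Tg replicate 3. Some glutathione transferase genes are close copies of each other, and whether a probe reads more than 1 of them was not tested. Ftl1 and Fth1, the ferritin chains, differed by -0.11 and -0.01. The number of these genes with an unadjusted p under 0.05 was 3 without L1-Tg replicate 3, and 4 without L1-Tg replicate 2, without WT replicate 2 and without scaling. Of all genes tested, 2.85%, 3.91%, 4.12% and 3.71% were under 0.05 on the higher side in these settings, in the same order.

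**Figure D3:**
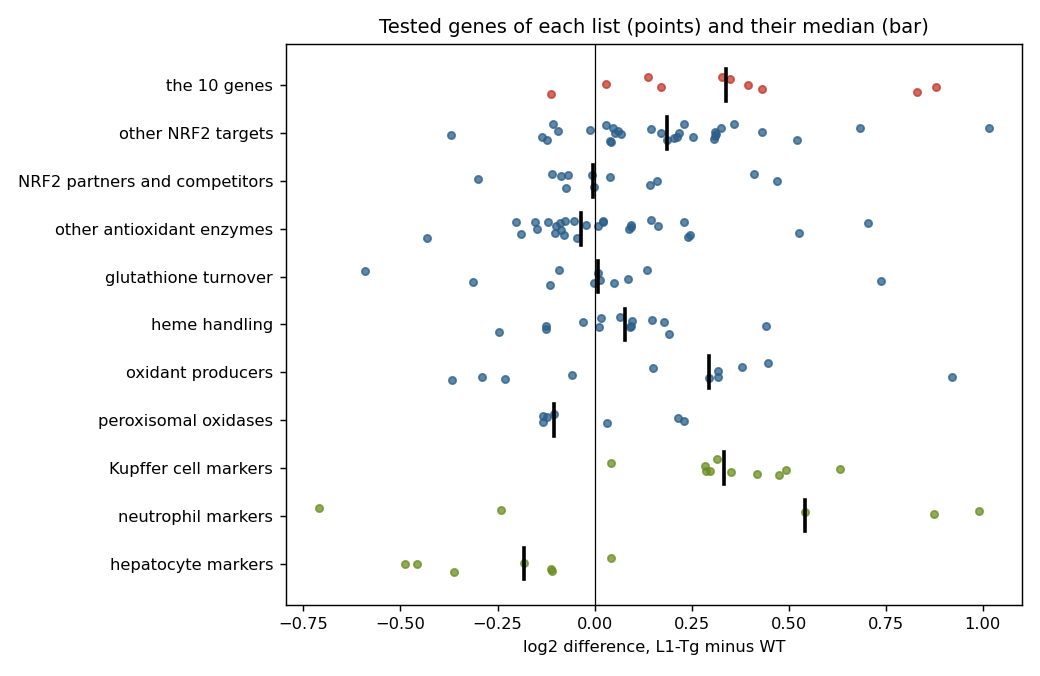
Log2 difference between L1-Tg and WT livers of every tested gene in each list (points, spread vertically for clarity), with the list's median as a black bar. Red marks the 10 genes, blue the other pathway lists and green the cell type markers. The medians are 0.34 for the 10 genes, 0.19 for the other NRF2 targets, -0.03 for the other antioxidant enzymes and 0.33 for the Kupffer cell markers.

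Antioxidant and thiol-repair enzymes outside these lists were measured on 28 genes, of which 13 were higher and 15 lower, with a median of -0.03 that turned to 0.07 with scaling to the array median. For 7 genes the groups were apart, 3 higher and 4 lower, beside 7.28% and 8.63% of all genes tested. Only 2, the glutathione peroxidase genes Gpx3 and Gpx4, had an unadjusted p under 0.05 in limma, and both were higher. Of all genes tested, 4.55% were under 0.05 on the higher side and 4.32% on the lower side. Gpx3, the secreted form, had log2 signals of -1.62, -1.28 and -1.01 in L1-Tg livers and of -1.96, -2.32 and -1.75 in WT livers, a log2 difference of 0.70 (SE 0.21, limma adjusted p = 0.475). Gpx4, which reduces lipid hydroperoxides, had values of 6.72, 6.69 and 6.66 in L1-Tg livers and of 6.46, 6.46 and 6.41 in WT livers, a log2 difference of 0.24 (SE 0.08, limma adjusted p = 0.51). Gpx1, the most widely expressed form, had every L1-Tg pool below every WT pool, with a difference of -0.20 (SE 0.10, limma adjusted p = 0.601). Sod1, the superoxide dismutase of the cytosol, differed by -0.10 (limma adjusted p = 0.737) and Txnip, an inhibitor of thioredoxin, by -0.43 (limma adjusted p = 0.677), both with overlapping groups. For Txnip the difference was -0.12 without WT replicate 1 and -0.77 without WT replicate 2.

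The enzymes that produce oxidants were measured too. Of 11 genes for NADPH oxidase subunits and other producers of superoxide, nitric oxide or oxidants, 7 were higher and 4 lower, with a median of 0.29. Xdh, which makes uric acid and superoxide, was the only gene with an unadjusted p under 0.05 in limma, and its groups did not overlap. Its values were 3.29, 3.26 and 3.48 in L1-Tg livers and 2.98, 2.87 and 3.23 in WT livers, a log2 difference of 0.32 (SE 0.13, adjusted p = 0.55). Rac2, a gene of phagocytes, differed by 0.45 (SE 0.21), and by 0.23 without WT replicate 1. Mpo, the myeloperoxidase of phagocytes, had a signal well above background on 3 L1-Tg arrays but on 1 WT array and was tested only through the L1-Tg pools. Its measured difference of 0.92 (SE 0.50) therefore rests on WT signals mostly not well above background. Both genes had overlapping groups. Of 7 peroxisomal oxidases that produce hydrogen peroxide, 3 were higher and 4 lower, with a median of -0.11 that was 0.03 after quantile normalization, and 0 had an unadjusted p under 0.05 in limma. Hao1 and Ddo, which oxidize glycolate and D-aspartate, had the largest differences, 0.22 and 0.23, which were 0.05 and 0.02 without WT replicate 3. Hao2 and Dao were well above background on no array. Limma called 0 genes of any of these lists after adjustment.

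Whole liver holds several cell types, and fewer cells of a type cannot be told apart from less RNA per cell. Hepatocyte markers were bright on all arrays, so the RNA matched its labelled tissue. The hepatocyte list was lower in 6 of 7 genes, with a median of -0.18, and its summed signal in units of the array's 75th percentile was between 4113 and 4931 in L1-Tg livers and between 4852 and 5113 in WT livers. Pck1 (-0.46), Ass1 (-0.36) and Apoa1 (-0.49), which serve gluconeogenesis, the urea cycle and lipoproteins, had every L1-Tg pool below every WT pool and an unadjusted p under 0.05 in limma. Of all genes tested, 8.63% had every L1-Tg pool below every WT pool, and 4.32% were under 0.05 on the lower side. Without WT replicate 1 Apoa1 differed by -0.32. Kupffer cell and macrophage markers were higher in 10 of 10 tested genes, with a median of 0.33, but the groups overlapped for each of them and 0 had an unadjusted p under 0.05 in limma. Cd5l (0.63, SE 0.27) and C1qb (0.49, SE 0.23) had the largest differences, which were 0.40 and 0.30 without WT replicate 1. Their summed signal was between 172 and 201 in L1-Tg livers and between 108 and 199.6 in WT livers, and no marker of the list was below background on all arrays.
On WT replicate 3 the Kupffer list was as high as on the L1-Tg arrays. Against each gene's WT mean its median was 0.47, 0.25 and 0.43 in L1-Tg replicates 1 to 3, against -0.40, -0.10 and 0.51 in WT replicates 1 to 3. WT replicate 3 was also the highest WT pool for 6 of the 10 genes, namely Keap1, Nqo1, Hmox1, Gclc, Gclm and Srxn1. Without WT replicate 3 the Kupffer median was 0.62, and 8 of its genes had an unadjusted p under 0.05 in limma. In that setting 6.05% of all genes tested were under 0.05 on the higher side, beside 4.55% with all arrays. Without WT replicate 1 the Kupffer median was 0.15. The part of these cells in the values of the 10 genes was not tested.

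The remaining marker lists follow, each with its count and summed signal. Neutrophil markers were higher in 3 of 5 tested genes with a median of 0.54, with the largest differences in S100a8 (0.99, SE 0.43) and S100a9 (0.87, SE 0.44, and 0.56 without WT replicate 1 and also without L1-Tg replicate 2), and Csf3r (-0.24, SE 0.09) had every L1-Tg pool below every WT pool. Their summed signal was between 177 and 196 in L1-Tg livers and between 209 and 258 in WT livers, and 74.3% to 90.5% of it came from Csf3r. Without Csf3r the sums overlapped, at 18.8 to 23.9 in L1-Tg livers and 19.9 to 66.3 in WT livers. Elane, the other lower gene, differed by -0.71 (SE 0.49) with overlapping groups, and by -0.11 without WT replicate 2. Cxcr2 was well above background on no array. Retnlg, whose difference is the median of the list, was well above background on 3 L1-Tg arrays but on 2 WT arrays. It was tested only through the L1-Tg pools, and its difference was 0.05 without WT replicate 1. Lymphocyte markers were higher in 5 of 7 genes with a median of 0.37. Among the higher genes, Cd79a was well above background on 3 L1-Tg arrays but on 2 WT arrays, and it was tested only through the L1-Tg pools. Ms4a1 differed by 0.91 with overlapping groups, and by 0.51 without WT replicate 1. Cd8a had a signal well above background on 3 L1-Tg arrays and on 0 WT arrays, and it was tested only through the L1-Tg pools. Its groups overlapped, with WT replicate 1 (-4.06) above every L1-Tg pool (-4.30 to -4.17). The difference of the Cd8a means, 0.90, was 0.17 without WT replicate 3. With WT signals raised to the lowest signal well above background on their array, the group means differed by 1.03-fold. Cd3e was lower by 0.30 with no overlap. Cd4 differed by -0.71 (SE 0.33) with overlapping groups, and by -0.39 without WT replicate 2. The summed signal of the list was between 81.1 and 97.6 in L1-Tg livers and between 90.4 and 225 in WT livers, but 92.4% to 96.4% of it came from the probe of Cd4. Without Cd4 the sum was between 6.15 and 7.01 in L1-Tg livers and between 6.64 and 8.14 in WT livers. Erythroid markers were higher in 5 of 6 genes with a median of 0.26, with the largest differences in Hbb-b2 (0.74, and 0.33 without L1-Tg replicate 2) and Slc4a1 (0.29), and L1-Tg replicate 2 held the highest summed signal, 884 beside 420 to 583 in WT livers and 428 to 480 in the other L1-Tg pools. Endothelial markers were higher in 4 of 6 genes (median 0.07, summed signal 98.3 to 100.1 in L1-Tg livers and 93.3 to 101.3 in WT livers), with the largest differences in Lyve1 (0.26) and Cdh5 (-0.17). With 1 array left out these ranged from -0.05 to 0.73 and from -0.38 to 0.11, so neither had a stable sign. Stellate cell markers were higher in 2 of 5 genes (median -0.05, but 0.06 with scaling to the array median, summed signal 4.22 to 8.76 and 3.72 to 9.07), and Reln (-0.42, SE 0.10) had every L1-Tg pool below every WT pool. Acta2 differed by -0.68, and by 0.00 without WT replicate 1. Cholangiocyte markers were higher in 2 of 4 genes (median -0.14, but 0.10 without WT replicate 1, summed signal 1.32 to 2.02 and 1.09 to 1.54), with the largest differences in Spp1 (0.52, and 0.27 without L1-Tg replicate 3) and Krt19 (-0.38, and 0.00 without WT replicate 1). Limma called 0 genes of these lists after adjustment, and the part of these cells in the values of the 10 genes was not tested.

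**Figure D4:**
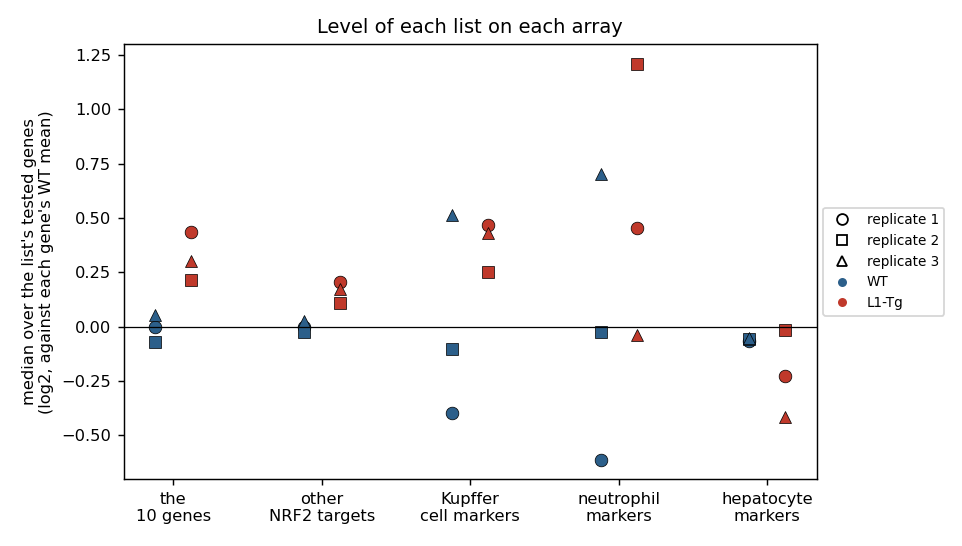
Median over the tested genes of each list on each array, on the log2 scale against each gene's WT mean, with WT in blue, L1-Tg in red and marker shapes for the replicate number. The 10 genes and the other NRF2 targets lie higher on all L1-Tg arrays than on all WT arrays, whereas for the Kupffer cell markers WT replicate 3 (0.51) lies above the L1-Tg arrays (0.25 to 0.47).

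The same differences were computed under other settings. Over 18 alternatives the log2 difference ranged from 0.41 to 0.54 for Gclc, from 0.67 to 1.02 for Srxn1 and from 0.52 to 1.11 for Nqo1. It ranged from 0.29 to 0.50 for Nfe2l2, from 0.27 to 0.46 for Txnrd1, from 0.13 to 0.28 for Gclm and from 0.09 to 0.25 for Keap1. For Hmox1 it ranged from 0.12 to 0.57, for Sod2 from -0.03 to 0.14 and for Cat from -0.19 to -0.00. The highest values came with scaling to the array median for 7 of the genes shown. That setting adds the same amount to the difference of every gene, and it moved the median of all genes from -0.03 to 0.08. Each such shift is therefore common to all genes.

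**Figure D5:**
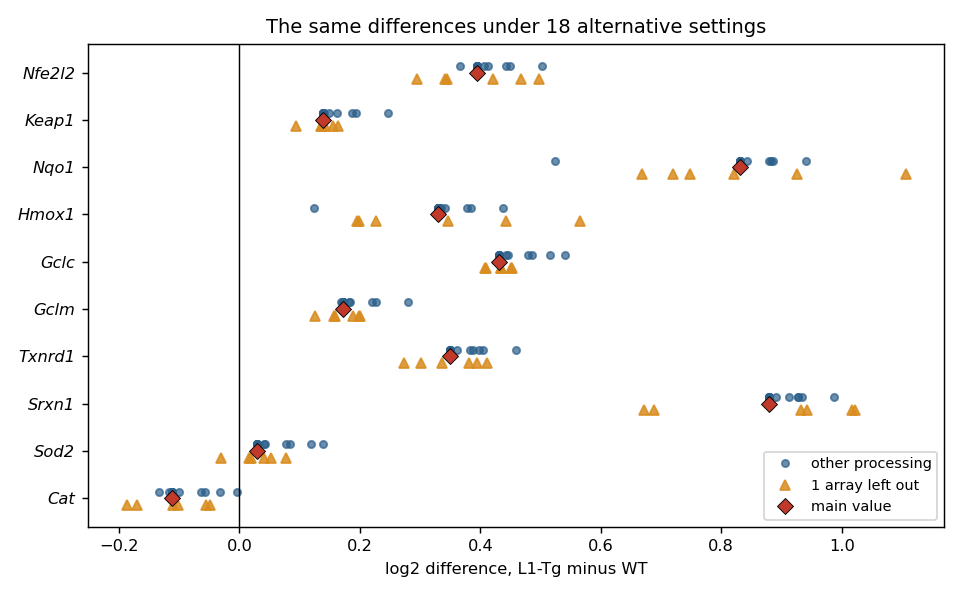
Log2 difference of each of the 10 genes as reported (red diamonds), under 12 other processing settings (blue circles) and with 1 array left out (orange triangles). The value is above 0 in all settings for 8 genes, it is on either side of 0 for Sod2 and below 0 in all settings for Cat.

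The arrays themselves were alike. The 75th percentile of the signals was between 297 and 378, the share of spots well above background between 53.1% and 59.2%, and 0 spots were saturated. Pearson's r across genes, which are no independent replicates, was between 0.985 and 0.994 within a genotype and between 0.979 and 0.992 between genotypes. The 6 arrays lay on 1 slide scanned once, with WT arrays in row 1 and L1-Tg arrays in row 2, and row and genotype cannot be told apart. The array's probe for mouse Npc1l1 was well above background in 1 L1-Tg pool and 2 WT pools, and it does not check the human transgene.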

How the data were processed

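Liver RNA of 3 L1-Tg and 3 WT pools was hybridized with Cy3 to an array of 62976 spots, 3671 of them controls. The authors read the images with Agilent Feature Extraction (version 10.10.1.1). For every spot they deposited a processed intensity, linear and background-subtracted within its array but not scaled between arrays. The deposited matrix of intensities is this signal multiplied by a constant for each array (2.46 to 2.98), and what the constant stands for is not given in the sources used here. The authors' marks for spots well above background and for non-uniform spots, 0 or 1, were used as filters.

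Controls and non-uniform spots were left out and repeated spots of 432 probes averaged. Log2 of the intensity was taken minus the array's 75th percentile over non-control spots. Of 28685 probes named by a RefSeq accession, 27235 were matched to a symbol. The brightest probe stood for a gene. To be tested, a gene had to be well above background on each array of 1 genotype or of both. Groups were compared in R 4.3.3 by the moderated linear model of limma 3.58.1 (two-sided, with Benjamini-Hochberg adjustment over the genes tested, threshold 0.05). Files were read with the R packages jsonlite 2.0.0 and data.table, version 1.17.8. The pipeline was tested on simulated data. The number of arrays limits the precision.

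The 10 genes and 15 other lists were chosen with earlier results of these data known, and a list is described by counts and its median alone. From each other list the genes with an unadjusted p under 0.05 (up to 8) and the 2 largest differences were named, with Slc7a11, Gsr, Gpx1, Sod1, Prdx1, Txn1, Txnip and markers at background. Other named genes were chosen after their values were seen. Alternatives were other scalings (quantile, array median, none, the deposited matrix), a normexp correction with offset 50, other filters and probe summaries, ordinary variances, the replicate number as a block, an index threshold of 1 and leaving out each array. A percentile over distinct probes was added after the data were seen. Genes not matched on the array were Cd68, Duox2, Gsta1, Hbb-b1, Ly6g and Tf.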

Additional observations from a re-analysis of the deposited data

How the results depend on the processing

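Of the 10 genes 0 passed the adjusted threshold in limma in any alternative, 7 passed the difference index under each of its alternatives, and 9 were higher in each alternative other than leaving out WT replicate 2, which gave 8. The median of the 10 differences was 0.45 with scaling to the array median, which moves all genes up, and between 0.23 and 0.40 with 1 array left out. With 1 array left out Sod2 ranged from -0.0306 to 0.0778, and it was the only gene of the 10 to change sign. The number of all genes past the adjusted threshold, 29, was 10 with no filter on dim probes, where more genes were tested, 0 with ordinary variances, where 1837 genes had an unadjusted p under 0.05 and limma with moderated variances gave 1979, and between 9 and 19 with 1 array left out. With the replicate block it was 11, and among the 10 genes 4 in place of 5 reached an unadjusted p under 0.05. Of all genes tested, 4.04% were then under 0.05 on the higher side, in place of 4.55%. Same-numbered arrays of the genotypes lay in the same column of the slide. The correlations of same-numbered deviations were -0.16, 0.11 and 0.02, and not every pool correlated best with its own number. No pairing by replicate number was seen, but 3 pools per genotype cannot exclude one. Dim probes limit what can be compared, as for Slc7a11, and the number of arrays limits every value.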
